A study of Mus musculus with 20 samples.

Results

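The Tex genes of the mouse are genes that were named for expression in testis, and 33 of them were followed through the sorted stages of spermatogenesis. They were taken by name as all genes whose only symbol on the array begins with Tex and a number, with Tex11 and Tex12 left out, and they are 33 of the 18193 genes with a single symbol. Each gene was read by the probe set with the highest mean over all arrays, and 8 of the 33 genes had several probe sets. The choice used gene names and no measured difference between fractions.

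The study sorted dissociated testis cells of adult male C57BL/6 x DBA/2J F1 mice, aged 10 to 16 weeks and given no treatment, by the fluorescence of the DNA dye Hoechst 33342. RNA was hybridised to 20 Affymetrix MOE430 version 2 arrays, each holding a pool of cells from several sorts. In order of development the fractions were spermatogonia (Sp, 4 arrays), pre-leptotene (pL, 3), leptotene/zygotene (LZ, 3), early-pachytene (eP, 1), mid-pachytene (mP, 2), late-pachytene (lP, 1) and diplotene spermatocytes (D, 2) and round spermatids (RS, 4). The leptotene/zygotene fraction joins a pair of stages, and a change between fractions can be a change per cell or a change in which cells the gate held, which arrays of sorted pools cannot tell apart.

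The symbol Tex says where a transcript was first found, not what its protein does, so the members belong to unrelated families. Some act in all tissues, such as Tex10 in ribosome assembly, Tex264 in the selective degradation of endoplasmic reticulum and Tex2 at membrane contacts. Others serve the germ line: Tex14 builds the bridges that join sister germ cells, Tex15 and Tex19.1 restrain transposons, and Tex101 is needed for a sperm surface protein that lets sperm pass into the oviduct. During meiosis a spermatocyte silences its X chromosome in pachynema, and after meiosis the haploid round spermatid makes the transcripts that build the acrosome, the flagellum and the compact sperm nucleus.

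The promoters showed how the members differ in sequence, and 6 are printed because their genes span the patterns described below. For 27 of the 33 genes RefSeq (GRCm38.p6) gave at least 1 promoter, 250 bases before to 50 bases after the start; Tex13a, Tex15, Tex22, Tex24, Tex43 and Tex55 were not among them. Capitals mark each CpG, the dinucleotide that can be methylated. The first 3 promoters belong to genes with their highest signal before pachynema, Tex13b (chrX:140813384-140813683, minus strand), Tex14 (chr11:87404815-87405114, plus strand) and Tex19.1 (chr11:121145893-121146192, plus strand). The other 3 belong to genes with their highest signal in round spermatids, Tex36 (chr7:133602066-133602365, minus strand), Tex37 (chr6:70918873-70919172, minus strand) and Tex2 (chr11:106612881-106613180, minus strand).
Tex13b: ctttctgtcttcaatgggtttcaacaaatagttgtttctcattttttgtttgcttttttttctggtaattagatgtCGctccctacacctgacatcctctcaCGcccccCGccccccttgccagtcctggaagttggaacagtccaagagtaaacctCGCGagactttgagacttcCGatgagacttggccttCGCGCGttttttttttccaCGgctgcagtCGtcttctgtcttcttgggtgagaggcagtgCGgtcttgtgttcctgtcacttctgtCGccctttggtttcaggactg
Tex14: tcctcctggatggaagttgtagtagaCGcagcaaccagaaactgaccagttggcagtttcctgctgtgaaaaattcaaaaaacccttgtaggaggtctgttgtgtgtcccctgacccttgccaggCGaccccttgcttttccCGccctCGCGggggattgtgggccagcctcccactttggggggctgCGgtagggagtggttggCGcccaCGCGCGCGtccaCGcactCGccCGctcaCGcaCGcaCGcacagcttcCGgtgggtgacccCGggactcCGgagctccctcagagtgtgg
Tex19.1: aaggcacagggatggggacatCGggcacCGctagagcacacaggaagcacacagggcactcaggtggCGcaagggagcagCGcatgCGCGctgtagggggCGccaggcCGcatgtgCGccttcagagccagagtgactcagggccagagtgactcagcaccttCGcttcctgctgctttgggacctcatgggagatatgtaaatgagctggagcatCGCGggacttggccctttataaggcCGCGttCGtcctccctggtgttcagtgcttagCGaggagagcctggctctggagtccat
Tex36: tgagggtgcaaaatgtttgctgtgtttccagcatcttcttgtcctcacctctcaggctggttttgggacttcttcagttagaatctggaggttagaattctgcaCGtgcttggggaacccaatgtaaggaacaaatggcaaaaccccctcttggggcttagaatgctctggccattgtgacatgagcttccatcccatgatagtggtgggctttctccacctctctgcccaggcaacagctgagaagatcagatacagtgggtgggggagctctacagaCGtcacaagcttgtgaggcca
Tex37: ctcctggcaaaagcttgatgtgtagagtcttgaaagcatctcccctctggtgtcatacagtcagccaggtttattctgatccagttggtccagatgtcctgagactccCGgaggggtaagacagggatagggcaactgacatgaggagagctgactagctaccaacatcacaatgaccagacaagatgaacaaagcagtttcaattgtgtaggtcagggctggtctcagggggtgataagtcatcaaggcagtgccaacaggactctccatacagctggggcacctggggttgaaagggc
Tex2: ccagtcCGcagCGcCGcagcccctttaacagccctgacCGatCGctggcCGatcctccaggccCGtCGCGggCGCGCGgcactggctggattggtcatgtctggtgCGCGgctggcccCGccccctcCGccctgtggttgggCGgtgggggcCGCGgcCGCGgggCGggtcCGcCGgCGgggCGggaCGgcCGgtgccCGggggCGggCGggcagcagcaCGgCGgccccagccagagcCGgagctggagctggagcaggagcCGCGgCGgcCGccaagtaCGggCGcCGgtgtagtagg

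The 3 early genes carried 13, 20 and 16 CpG in these 300 bases, while Tex36 carried 2, Tex37 carried 1 and Tex2, a gene of all tissues, carried 41. Over the 17 genes that had a promoter and their highest signal in round spermatids, 14 held up to 6 CpG and the median was 4. The exceptions were Tex2, Tex261 with 29 and Tex264 with 34. Tex26, under a log2 signal of 5 on all arrays, is left out of these counts and of the plot, and its promoter held 15. Of the 5 genes with a promoter that were highest before pachynema, only Tex16 held none and the other 4 held 13 to 21, with a median of 16. Of the 4 genes highest in mid-pachytene to diplotene, Tex19.2 held 2 and the others 17 to 38. Among all 27025 genes with a promoter in the table, 45.8% held up to 6 CpG. These counts are descriptions of the sequence, and no test was made of them.

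**Figure D1:**
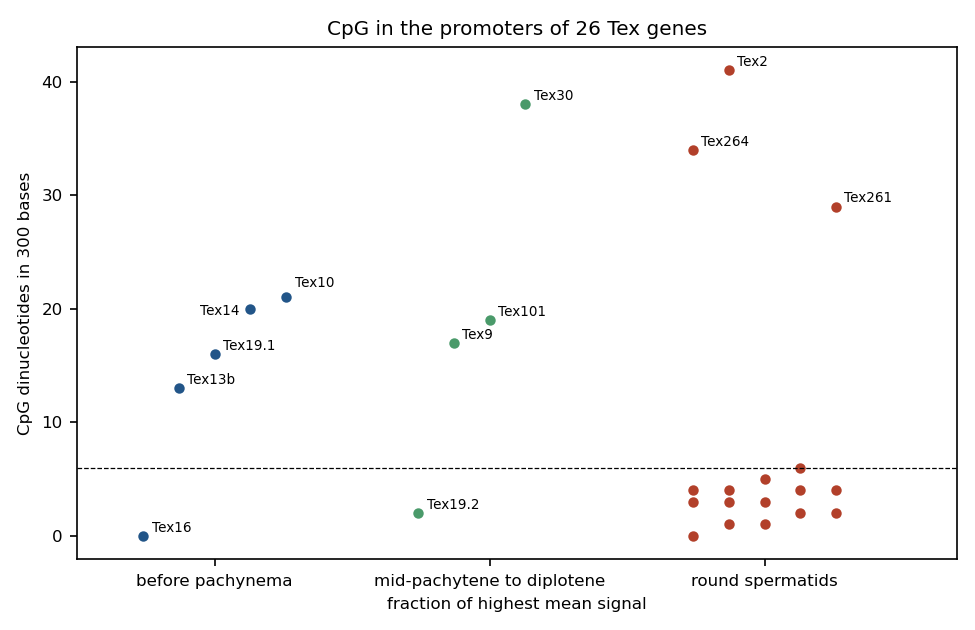
CpG dinucleotides in the 300-base promoter (vertical axis, count) of 26 Tex genes, grouped by the fraction of their highest mean signal, with the promoter richest in CpG standing for a gene with several. The dashed line is at 6 CpG. On or below it lie 14 of the 17 spermatid genes, 1 of 5 genes highest before pachynema and 1 of 4 highest in mid-pachytene to diplotene.

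Short motifs were searched on both strands. CAGTTG, the core of MYB sites, stood in 7 of the 32 promoters (21.9%), against 13.7% of all 32851 promoters. Tex37 held it at bases 82 to 87 and 133 to 138 of the printed sequence, and the second match overlaps GTTGCC at bases 131 to 136. GTTGCC, part of the X-box bound by RFX factors, stood in 8 promoters of the Tex genes (25%), 3 of them those of Tex35, against 12.5% of all, and Tex36 held it at bases 232 to 237. The looser MYB pattern AACNGNC, which can overlap CAGTTG, stood in 46.9% of the Tex promoters and in 32.8% of all. TTTCCCGC, an E2F site, stood in the promoters of Tex14 and Tex30 (6.25%, against 1.07% of all), in Tex14 at bases 138 to 145. TATAAA, the TATA box, stood in 6.25% of the Tex promoters against 13.6% of all, and lay at bases 232 to 237 of Tex19.1. TGACG, the core of the cAMP response element (CRE), stood in 12.5% against 20.8%, the E-box CACGTG in 6.25% against 7.15%, and the whole CRE TGACGTCA in 0 of 32 promoters against 1.79%. A match is a run of letters and not a bound site.

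The values are GC-RMA signals, probe intensities corrected for background and normalised by the authors, taken to log2, and a log2 signal under 5 is close to the background of these arrays. The array medians lay between 11.1 and 12.7 on the linear scale. The 6 spermatogonial markers (such as Kit and Dmrt1) averaged 3.71 to 5.41 in round spermatids, against 9.84 to 10.95 in spermatogonia. They averaged 10.11 to 10.70 in pre-leptotene and 10.60 to 10.86 in leptotene/zygotene cells, so they did not separate spermatogonia from these fractions. The 8 spermatid markers (such as Prm1, Tnp1 and Acrv1) averaged 12.29, 13.20, 11.60 and 11.22 on the 4 spermatogonia arrays, 9.70 to 11.07 in pre-leptotene cells and 12.99 to 13.47 in round spermatids. The 5 macrophage markers averaged 5.65, 2.51 and 2.93 in pre-leptotene cells, against 7.02, 5.81, 5.90 and 7.37 on the 4 spermatogonia arrays. The paper reported no sign of somatic cells in its sorted fractions. Whether any of these marker values relates to the spermatogonia results below was not tested.

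The 33 genes were sorted by the fraction of their highest mean, into genes highest before pachynema, a few highest between and a large spermatid set. Of the 32 genes that reached a log2 signal of 5 on at least 2 arrays, 22 had their highest fraction mean in round spermatids (68.8%), where 25.3% of 11952 genes measured the same way had theirs. These were Tex2, Tex13a, Tex21, Tex22, Tex24, Tex29, Tex33, Tex35, Tex36, Tex37, Tex38, Tex43, Tex44, Tex45, Tex46, Tex47, Tex48, Tex50, Tex52, Tex55, Tex261 and Tex264. All round spermatid arrays lay above those of the next highest fraction for Tex21, Tex24, Tex29, Tex33, Tex36, Tex38, Tex43, Tex45, Tex47 and Tex48. For the other spermatid genes they did not. The next fraction was the single early-pachytene array for Tex33, Tex36, Tex38, Tex43 and Tex48. For Tex48, spermatogonia arrays 1 and 2 (10.83 and 11.69) lay within the round spermatid range of 10.64 to 12.11. The share of all genes with such a separation was not counted. Before pachynema lay the highest means of 6 genes, Tex13b in spermatogonia, Tex10, Tex14, Tex15 and Tex16 in pre-leptotene cells and Tex19.1 in leptotene/zygotene cells. Tex30 and Tex101 were highest in mid-pachytene, Tex19.2 on the late-pachytene array and Tex9 in diplotene. The lead over the next fraction was 0.0008 for Tex30, 0.0147 for Tex9 and 0.0691 for Tex19.2, so these genes had no clear mid-meiotic peak. Tex26 stayed under a log2 signal of 5 on all arrays and was not tested.

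**Figure D2:**
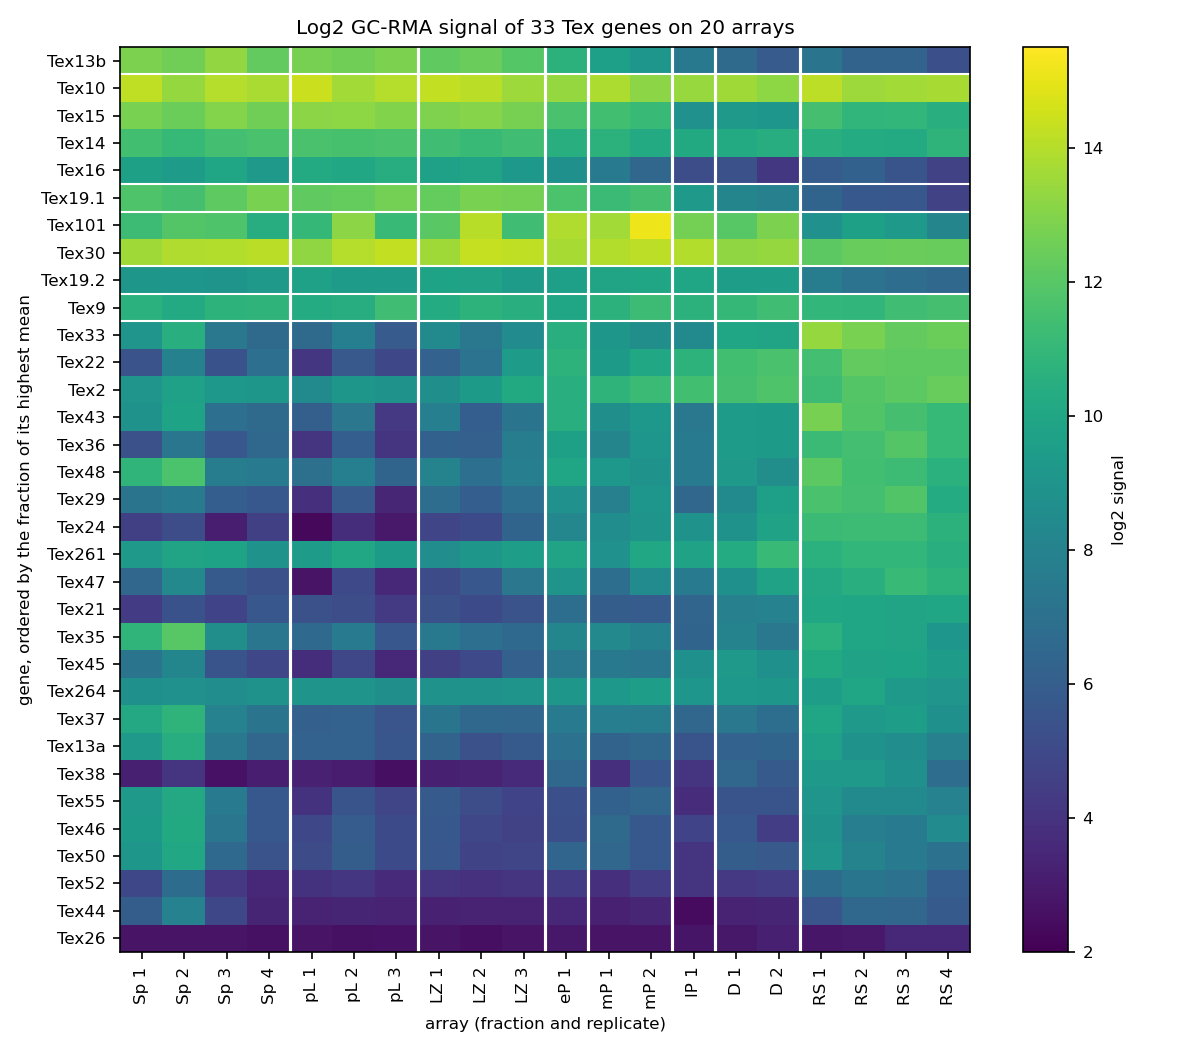
Log2 GC-RMA signal (colour) of the 33 Tex genes (rows, ordered by the fraction of their highest mean) on the 20 arrays (columns, by fraction and replicate, with white lines between fractions). The lower rows brighten in the 4 round spermatid arrays, and part of them are also bright on spermatogonia arrays 1 and 2.

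The distance between a gene's highest and lowest fraction mean was 0.63 for Tex10 and 0.68 for Tex264, and 8.12 for Tex24. A difference among the 6 fractions with at least 2 arrays passed the moderated F test of limma at an adjusted p of 0.05 for 29 of the 32 genes (90.6%), beside 79.7% of all 22396 probe sets tested. The 3 that did not pass were Tex9, Tex10 and Tex264. All changes below come from 1 limma fit over the 20 arrays with Benjamini-Hochberg adjustment over those probe sets, and they are log2 differences. Shares of all probe sets count every probe set tested, while each Tex gene counts once, by its probe set of highest mean, so the units differ. The early- and late-pachytene fractions had 1 array each and enter no test.

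Tex13b, a gene of the X chromosome, was high through leptotene/zygotene and then declined over meiosis. Tex13b (probe set 1450555_at) had log2 signals of 12.83, 12.58, 13.32 and 12.27 in spermatogonia, 12.71, 12.59 and 12.84 in pre-leptotene and 12.20, 12.41 and 11.93 in leptotene/zygotene cells. Tex13b then read 10.67 on the early-pachytene array, 9.62 and 9.10 in mid-pachytene, 7.46 on the late-pachytene array, 6.67 and 5.85 in diplotene and 7.20, 6.30, 6.32 and 5.32 in round spermatids. The arrays before pachynema lay between 11.93 and 13.32, and every later array lay below them. In mid-pachytene the signal lay below that of leptotene/zygotene (log2 change -2.82, SE 0.44, adjusted p = 0.000497) and lower again in diplotene than in mid-pachytene (log2 change -3.10, SE 0.49, adjusted p = 0.000479), while round spermatids and diplotene differed by 0.02 (log2 change 0.02, SE 0.42, adjusted p = 0.986).

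Tex16, a second X-linked gene, ran a similar course. Tex16 (probe set 1421700_at) had log2 signals of 9.65, 9.40, 9.96 and 9.30 in spermatogonia, 10.26, 10.07 and 10.42 in pre-leptotene and 9.73, 9.88 and 9.22 in leptotene/zygotene cells. Tex16 then read 8.76 on the early-pachytene array, 7.64 and 6.48 in mid-pachytene, 5.21 on the late-pachytene array, 5.33 and 4.18 in diplotene and 5.94, 6.20, 5.52 and 4.60 in round spermatids. The arrays of mid-pachytene did not overlap those of leptotene/zygotene (log2 change -2.55, SE 0.47, adjusted p = 0.00123) nor those of diplotene (log2 change -2.30, SE 0.51, adjusted p = 0.00514). The step to diplotene did not pass without mid-pachytene replicate 1 (log2 change -1.72, adjusted p = 0.0893) or diplotene replicate 2 (log2 change -1.73, adjusted p = 0.0859). In round spermatids the range was 4.60 to 6.20, against 4.18 and 5.33 in diplotene (log2 change 0.81, SE 0.44, adjusted p = 0.217).

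Tex13a, the X-linked relative of Tex13b, went the other way. Tex13a (probe set 1431531_at) had log2 signals of 9.23, 10.42, 7.40 and 6.43 in spermatogonia, 6.23, 6.22 and 5.62 in pre-leptotene and 6.30, 5.35 and 5.81 in leptotene/zygotene cells. Tex13a then read 7.10 on the early-pachytene array, 6.30 and 6.53 in mid-pachytene, 5.53 on the late-pachytene array, 6.26 and 6.35 in diplotene and 9.74, 8.92, 8.60 and 7.86 in round spermatids. It was at its lowest on the middle arrays and highest in round spermatids, with spermatogonia arrays 1 and 2 within or above the round spermatid range and arrays 3 and 4 below it. The signal was higher in round spermatids than in diplotene (log2 change 2.47, SE 0.79, adjusted p = 0.0301). The difference Tex13b minus Tex13a within an array averaged -2.50 ± 0.15 in round spermatids and 4.38 ± 1.83 in spermatogonia (SD, n = 4 each), a shift of -6.88. These fractions hold the highest means of the 2 genes, and the arrays of Tex13b alone already separate them. The shift is therefore a description, without a p-value. Only the shift can be read, since the signals of different probes are not on one scale.

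**Figure D3:**
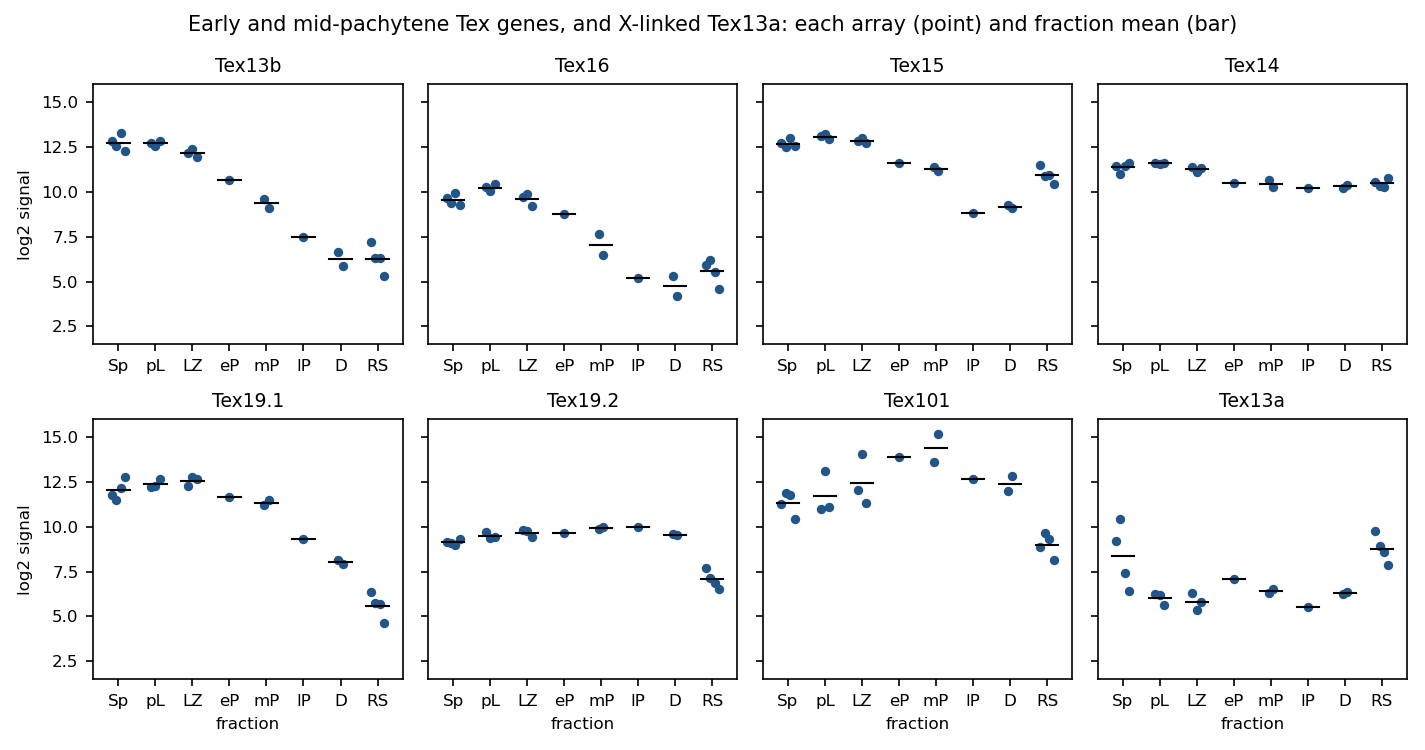
Log2 signal of 8 Tex genes (panels) in the 8 fractions in order of development, with each array as a point and the fraction mean as a bar. Tex13b, Tex16 and Tex19.1 decline from leptotene/zygotene on, Tex15 is at its lowest in late-pachytene and diplotene (8.84 to 9.25), Tex101 is highest in mid-pachytene, and Tex13a is highest in round spermatids.

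Tex15, which in mice is needed for silencing of transposons and for repair of meiotic breaks, was lowest late in prophase and partly recovered. Tex15 (probe set 1420719_at) had log2 signals of 12.76, 12.49, 13.01 and 12.55 in spermatogonia, 13.13, 13.21 and 12.94 in pre-leptotene and 12.87, 13.03 and 12.72 in leptotene/zygotene cells. Tex15 then read 11.62 on the early-pachytene array, 11.42 and 11.15 in mid-pachytene, 8.84 on the late-pachytene array, 9.25 and 9.08 in diplotene and 11.50, 10.91, 10.93 and 10.46 in round spermatids. Mid-pachytene lay below leptotene/zygotene (log2 change -1.59, SE 0.29, adjusted p = 0.00122) and diplotene below mid-pachytene (log2 change -2.12, SE 0.32, adjusted p = 0.000344). In round spermatids it was higher than in diplotene, with all 4 arrays above the 2 diplotene arrays (log2 change 1.78, SE 0.28, adjusted p = 0.000302). Tex15 was the only one of the 6 genes highest before pachynema whose signal passed the test as higher in round spermatids than in diplotene.

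Tex14, the bridge protein, moved little. Tex14 (probe set 1419240_at) had log2 signals of 11.43, 11.03, 11.46 and 11.64 in spermatogonia, 11.62, 11.58 and 11.61 in pre-leptotene and 11.38, 11.14 and 11.35 in leptotene/zygotene cells. Tex14 then read 10.50 on the early-pachytene array, 10.65 and 10.27 in mid-pachytene, 10.22 on the late-pachytene array, 10.24 and 10.41 in diplotene and 10.53, 10.33, 10.27 and 10.78 in round spermatids. Every array from early-pachytene on lay below every earlier array, and the step from leptotene/zygotene to mid-pachytene passed the test (log2 change -0.83, SE 0.25, adjusted p = 0.0234). It did not pass without leptotene/zygotene replicate 1 or 3 or mid-pachytene replicate 2 (log2 changes -0.80 to -0.64, adjusted p = 0.0515 to 0.233) or with median centring (log2 change -0.74, adjusted p = 0.067). Of 9 other bridge genes, 4 fell by mid-pachytene against leptotene/zygotene and 1 rose (median change -0.74), where 15.3% of all probe sets were lower and 13.7% higher (median change -0.15). Kif23, a mitotic kinesin of the bridge, was among the lower ones (log2 change -1.75, SE 0.28, adjusted p = 0.000594), and Septin12, a septin of the sperm annulus, was the higher one (2.65, SE 0.74, adjusted p = 0.015).

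Tex10 had a high signal on all arrays. Tex10 (probe set 1439464_s_at) had log2 signals of 14.19, 13.39, 14.00 and 13.78 in spermatogonia, 14.42, 13.63 and 14.00 in pre-leptotene and 14.25, 14.10 and 13.51 in leptotene/zygotene cells. Tex10 then read 13.39 on the early-pachytene array, 13.83 and 13.13 in mid-pachytene, 13.40 on the late-pachytene array, 13.59 and 13.22 in diplotene and 14.13, 13.51, 13.65 and 13.73 in round spermatids. All of these values lay between 13.13 and 14.42 and neighbouring fractions with at least 2 arrays overlapped. A second probe set of Tex10 averaged 11.48 in leptotene/zygotene, 10.54 in mid-pachytene, 10.56 in diplotene and 11.27 in round spermatids. In the later against the earlier fractions Tex10 did not pass in the main fit. It passed as lower over the mean of its probe sets and in some fits with other settings or an array left out. Of the partners of Tex10 in the RIX1 and PELP1 complex, which matures the large ribosomal subunit, 4 of 6 fell in mid-pachytene against leptotene/zygotene. In diplotene 4 of 6 were lower than in mid-pachytene, beside 15.3% and 12.7% of all probe sets at these steps. Las1l, the nuclease that works with the complex, was among them in both comparisons (log2 changes -2.19, SE 0.63, adjusted p = 0.0176, and -2.90, SE 0.69, adjusted p = 0.00799).

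Tex19.1 and Tex19.2 are neighbouring copies of one gene that separated during meiosis. Tex19.1 (probe set 1417482_at) had log2 signals of 11.78, 11.51, 12.17 and 12.80 in spermatogonia, 12.22, 12.29 and 12.66 in pre-leptotene and 12.29, 12.79 and 12.67 in leptotene/zygotene cells. Tex19.1 then read 11.67 on the early-pachytene array, 11.20 and 11.50 in mid-pachytene, 9.32 on the late-pachytene array, 8.15 and 7.90 in diplotene and 6.35, 5.73, 5.69 and 4.64 in round spermatids. Tex19.1 was lower at each tested step after leptotene/zygotene, in mid-pachytene (log2 change -1.24, SE 0.43, adjusted p = 0.0424), in diplotene (log2 change -3.32, SE 0.47, adjusted p = 0.00023) and in round spermatids (log2 change -2.42, SE 0.41, adjusted p = 0.000597). The first of these steps lay close to the threshold and no longer passed without any 1 array of leptotene/zygotene or mid-pachytene (log2 changes -1.39 to -1.09, adjusted p = 0.0539 to 0.163). Nor did it pass without pre-leptotene replicate 1 or 2 or round spermatid replicate 2 or 3 (adjusted p = 0.0507 to 0.0524) or with no filter on low signals (adjusted p = 0.078).

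Tex19.2 (probe set 1460274_at) had log2 signals of 9.14, 9.09, 9.01 and 9.33 in spermatogonia, 9.72, 9.40 and 9.41 in pre-leptotene and 9.82, 9.79 and 9.43 in leptotene/zygotene cells. Tex19.2 then read 9.63 on the early-pachytene array, 9.86 and 10.00 in mid-pachytene, 10.00 on the late-pachytene array, 9.59 and 9.54 in diplotene and 7.71, 7.16, 6.85 and 6.54 in round spermatids. Tex19.2 thus stayed between 9.01 and 10.00 through diplotene and was lower in round spermatids alone (log2 change -2.50, SE 0.29, adjusted p = 3.64e-05). The within-array difference Tex19.1 minus Tex19.2 averaged -1.46 ± 0.31 in round spermatids and 2.92 ± 0.48 in spermatogonia (SD, n = 4 each), a shift of -4.39. The arrays of Tex19.1 alone already separate these fractions, so this too is a description without a p-value. The probe sets are not stated to be free of cross-hybridisation between the copies.

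The other genes of transposon silencing did not form 1 pattern. Of 9 such genes 8 were measured, and 2 of the 8 were lower in diplotene than in mid-pachytene (beside 12.7% of all probe sets), among them Ubr2, the ubiquitin ligase that TEX19.1 binds (log2 change -4.75, SE 0.67, adjusted p = 0.000213). In round spermatids against diplotene 3 were lower and 1 higher, beside 14.2% and 10.9% of all probe sets. The lower ones included Piwil2 (-1.44, SE 0.37, adjusted p = 0.00886), and the higher one was Dnmt3l (2.29, SE 0.43, adjusted p = 0.00129).

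Tex101, a glycoprotein of the germ cell surface, was highest at mid-pachytene and much lower in round spermatids. Tex101 (probe set 1449103_at) had log2 signals of 11.27, 11.87, 11.78 and 10.43 in spermatogonia, 11.00, 13.13 and 11.08 in pre-leptotene and 12.03, 14.05 and 11.34 in leptotene/zygotene cells. Tex101 then read 13.90 on the early-pachytene array, 13.61 and 15.17 in mid-pachytene, 12.68 on the late-pachytene array, 11.98 and 12.83 in diplotene and 8.85, 9.65, 9.33 and 8.13 in round spermatids. The arrays before pachynema spread widely, and one leptotene/zygotene array at 14.05 lay above the lower mid-pachytene array. All round spermatid arrays lay below every other array (log2 change -3.42, SE 0.75, adjusted p = 0.0036 against diplotene). Of 11 genes listed with Tex101 for the maturation of ADAM3, 9 were measured and 8 tested, and none was lower at this step while 3 were higher (beside 14.2% and 10.9% of all probe sets), such as Calr3, a spermatid calreticulin (3.08, SE 0.72, adjusted p = 0.00523). Between mid-pachytene and leptotene/zygotene 6 of the 8 were higher (beside 13.7% of all probe sets), including Ly6k, the partner of TEX101 on the membrane (2.30, SE 0.73, adjusted p = 0.0271). Tex101 itself did not pass the test there (log2 change 1.92, SE 0.79, adjusted p = 0.0801), but it did with the numbered project of the study that an array belongs to as a block (log2 change 1.25, adjusted p = 0.0442) and without leptotene/zygotene replicate 2 (log2 change 2.71, adjusted p = 0.0193).

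Tex30 was flat and then lower at the end. Tex30 (probe set 1428593_at) had log2 signals of 13.56, 13.91, 13.93 and 14.12 in spermatogonia, 13.25, 14.01 and 14.28 in pre-leptotene and 13.60, 14.31 and 14.21 in leptotene/zygotene cells. Tex30 then read 13.75 on the early-pachytene array, 13.94 and 14.14 in mid-pachytene, 13.96 on the late-pachytene array, 13.26 and 13.39 in diplotene and 12.11, 12.34, 12.44 and 12.34 in round spermatids. The 4 round spermatid arrays (12.11 to 12.44) lay below the 2 diplotene arrays and below every other array (log2 change -1.02, SE 0.30, adjusted p = 0.02).

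Tex9 stayed within 10.01 and 11.51 on all arrays. Tex9 (probe set 1453360_a_at) had log2 signals of 10.60, 10.26, 10.73 and 10.80 in spermatogonia, 10.28, 10.43 and 11.36 in pre-leptotene and 10.33, 10.72 and 10.44 in leptotene/zygotene cells. Tex9 then read 10.01 on the early-pachytene array, 10.67 and 11.24 in mid-pachytene, 10.67 on the late-pachytene array, 11.01 and 11.37 in diplotene and 10.92, 10.91, 11.36 and 11.51 in round spermatids. Neighbouring fractions with at least 2 arrays overlapped, the F test did not pass, and none of the 5 steps between neighbouring fractions passed. The mean of mid-pachytene, diplotene and round spermatids was 0.51 above the mean of the 3 fractions before pachynema (log2 change 0.51, SE 0.18, adjusted p = 0.0181), with overlapping arrays. This did not pass without mid-pachytene replicate 2 (log2 change 0.42, adjusted p = 0.0734) or diplotene replicate 2 (log2 change 0.45, adjusted p = 0.059).

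The largest group, the 22 genes highest in round spermatids, reached that level along different courses. In round spermatids against diplotene, 13 of the 32 tested genes were higher (40.6%, beside 10.9% of all probe sets) and 4 were lower (12.5%, beside 14.2%), and the median change of the members was 1.75 beside -0.10 for all probe sets. Apart from Tex15, the 12 others that were higher belonged to the 22, which the sorting by highest mean favours. They were Tex46, Tex55, Tex33, Tex44, Tex13a, Tex52, Tex38, Tex29, Tex37, Tex21, Tex36 and Tex24, with log2 changes of 3.11 for Tex46 down to 1.72 for Tex24. Tex43, Tex48, Tex35 and Tex50 had changes of 2.35, 2.35, 2.19 and 2.05 on this scale, short of the threshold (adjusted p = 0.0595, 0.0751, 0.0978 and 0.128 in that order of genes). Tex43, Tex48 and Tex35 passed once spermatogonia replicate 2 or 4 was left out (5626 and 5860 of all probe sets called, against 5612 in the main fit). Those arrays enter this comparison only through the adjustment and the spread that all fractions share. With the project as a block 20 genes passed, the same 17 with Tex43 (adjusted p = 0.0325), Tex48 (adjusted p = 0.0323) and Tex35 (adjusted p = 0.0252) higher. Of all 22396 probe sets 6702 were called in either direction with this block, against 5612 in the main fit.

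**Figure D4:**
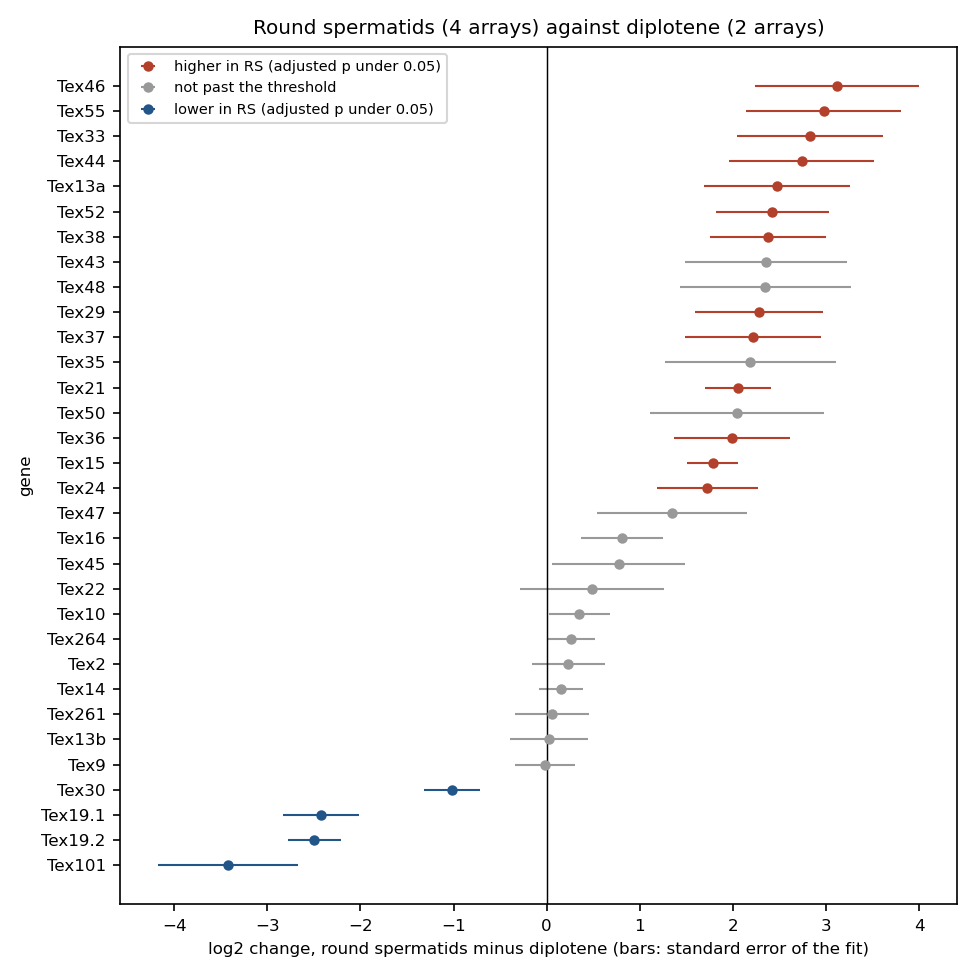
Log2 change of 32 Tex genes in round spermatids (4 arrays) minus diplotene (2 arrays), with the standard error of the fit as a bar and colours for the side of the threshold. At the top stand 12 spermatid genes and Tex15 among the genes past the threshold, and at the bottom Tex30, Tex19.1, Tex19.2 and Tex101.

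This count rested on the 2 diplotene arrays, and through the shared spread also on arrays outside the comparison. It was 17 in both directions together, and 7 without diplotene replicate 1 or 8 without diplotene replicate 2, of which Tex15, Tex21, Tex101, Tex19.1 and Tex19.2 passed under both. Tex13a, Tex30, Tex33, Tex36, Tex37, Tex44 and Tex55 passed under neither, Tex24, Tex29 and Tex52 did not pass without replicate 1, and Tex38 and Tex46 did not without replicate 2 (adjusted p = 0.0748 to 0.268 over these losses). With 1 round spermatid array left out, calls were lost for Tex13a (replicate 1 or 2), Tex24 (2 or 3), Tex29 (3), Tex36 (2 or 3) and Tex37 (1, 2 or 3), at adjusted p of 0.0532 to 0.0725. The arrays belong to numbered projects of the study, and within the 2 projects that hold both fractions all 17 genes changed in the direction of the fit. These are arrays of the same fit, with both diplotene arrays among them, so this was close to given and is no separate support.

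Tex46 and Tex55 had the largest rises at this step. Tex46 (probe set 1421367_at) had log2 signals of 9.34, 10.19, 7.29 and 5.74 in spermatogonia, 4.92, 5.91 and 5.04 in pre-leptotene and 5.71, 4.87 and 4.66 in leptotene/zygotene cells. Tex46 then read 5.23 on the early-pachytene array, 6.65 and 5.74 in mid-pachytene, 4.69 on the late-pachytene array, 5.71 and 4.43 in diplotene and 8.86, 7.77, 7.62 and 8.49 in round spermatids. Its round spermatid arrays lay above its diplotene arrays (log2 change 3.11, SE 0.88, adjusted p = 0.0167), but spermatogonia arrays 1 and 2 lay higher still. Tex55 (probe set 1457928_at) had log2 signals of 9.25, 10.17, 7.57 and 5.74 in spermatogonia, 3.99, 5.51 and 4.80 in pre-leptotene and 5.83, 5.19 and 4.74 in leptotene/zygotene cells. Tex55 then read 5.29 on the early-pachytene array, 6.20 and 6.45 in mid-pachytene, 3.69 on the late-pachytene array, 5.51 and 5.49 in diplotene and 9.04, 8.42, 8.45 and 8.01 in round spermatids. Tex55 showed the same order, with spermatogonia arrays 1 and 2 above all 4 round spermatid arrays (log2 change 2.98, SE 0.83, adjusted p = 0.0154).

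Tex33 had its rise in spermatids on top of a raised early-pachytene array. Tex33 (probe set 1454202_a_at) had log2 signals of 9.06, 10.46, 7.42 and 6.67 in spermatogonia, 6.69, 7.81 and 5.88 in pre-leptotene and 8.43, 7.40 and 8.51 in leptotene/zygotene cells. Tex33 then read 10.50 on the early-pachytene array, 9.17 and 8.69 in mid-pachytene, 8.42 on the late-pachytene array, 9.92 and 9.87 in diplotene and 13.38, 12.76, 12.28 and 12.48 in round spermatids. All round spermatid arrays lay at 12.28 or above, and no other array was above 10.50 (log2 change 2.83, SE 0.78, adjusted p = 0.0146 against diplotene). The second probe set of Tex33 averaged 12.20 in round spermatids and 9.82 in diplotene.

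Tex24 was the only gene that passed the test as higher by leptotene/zygotene. Tex24 (probe set 1441893_at) had log2 signals of 4.55, 5.21, 3.14 and 4.55 in spermatogonia, 2.29, 3.75 and 2.91 in pre-leptotene and 4.80, 5.03 and 6.33 in leptotene/zygotene cells. Tex24 then read 8.24 on the early-pachytene array, 8.61 and 8.98 in mid-pachytene, 8.87 on the late-pachytene array, 8.95 and 9.80 in diplotene and 11.22, 11.28, 11.23 and 10.67 in round spermatids. It passed the test in leptotene/zygotene against pre-leptotene (log2 change 2.40, SE 0.51, adjusted p = 0.0284), in mid-pachytene against leptotene/zygotene (log2 change 3.41, SE 0.57, adjusted p = 0.000732) and in round spermatids against diplotene (log2 change 1.72, SE 0.54, adjusted p = 0.0285). The first of these lay near the background, and with log2 values under 5 raised to 5 it became 0.45 (adjusted p = 0.708).

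Tex36 followed with a step at mid-pachytene and another after meiosis. Tex36 (probe set 1430209_at) had log2 signals of 5.36, 7.31, 5.68 and 6.56 in spermatogonia, 4.02, 6.03 and 4.06 in pre-leptotene and 6.19, 6.13 and 7.69 in leptotene/zygotene cells. Tex36 then read 9.67 on the early-pachytene array, 8.12 and 9.10 in mid-pachytene, 7.58 on the late-pachytene array, 9.44 and 9.37 in diplotene and 11.18, 11.49, 11.87 and 11.03 in round spermatids. Its arrays did not overlap in mid-pachytene against leptotene/zygotene (log2 change 1.94, SE 0.66, adjusted p = 0.037) or in round spermatids against diplotene (log2 change 1.99, SE 0.62, adjusted p = 0.0283).

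Tex45 had come near its round spermatid level by diplotene. Tex45 (probe set 1453463_at) had log2 signals of 7.22, 8.19, 5.52 and 4.86 in spermatogonia, 3.77, 4.89 and 3.51 in pre-leptotene and 4.55, 5.0 and 6.13 in leptotene/zygotene cells. Tex45 then read 7.38 on the early-pachytene array, 7.44 and 7.28 in mid-pachytene, 8.76 on the late-pachytene array, 9.30 and 8.75 in diplotene and 10.19, 9.79, 9.83 and 9.40 in round spermatids. The step to mid-pachytene passed the test (log2 change 2.13, SE 0.75, adjusted p = 0.0441), and the step between diplotene and round spermatids did not (log2 change 0.77, SE 0.71, adjusted p = 0.514).

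Tex22 and Tex2 also neared their final levels before the end of meiosis. Tex22 (probe set 1429548_at) had log2 signals of 5.48, 7.92, 5.41 and 6.94 in spermatogonia, 4.11, 5.77 and 4.93 in pre-leptotene and 6.25, 7.15 and 9.39 in leptotene/zygotene cells. Tex22 then read 10.75 on the early-pachytene array, 9.35 and 10.05 in mid-pachytene, 10.74 on the late-pachytene array, 11.43 and 11.60 in diplotene and 11.46, 12.26, 12.15 and 12.15 in round spermatids. Leptotene/zygotene replicate 3 was already at 9.39, above the other 2 arrays of its fraction, and the diplotene arrays lay next to the lowest round spermatid array (11.46). Averaged over the later fractions Tex22 was 4.75 higher than over the early ones (log2 change 4.75, SE 0.44, adjusted p = 5.38e-08).

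Tex2, the lipid transfer protein of membrane contacts, was measurable everywhere. Tex2 (probe set 1452213_at) had log2 signals of 9.04, 9.70, 9.18 and 9.12 in spermatogonia, 8.42, 9.13 and 8.95 in pre-leptotene and 8.70, 9.34 and 10.20 in leptotene/zygotene cells. Tex2 then read 10.53 on the early-pachytene array, 10.77 and 11.22 in mid-pachytene, 11.39 on the late-pachytene array, 11.53 and 11.79 in diplotene and 11.25, 11.87, 12.08 and 12.35 in round spermatids. It was higher in mid-pachytene than in leptotene/zygotene (log2 change 1.58, SE 0.41, adjusted p = 0.0102) and the later steps did not pass (log2 change 0.66, SE 0.45, adjusted p = 0.353 for diplotene against mid-pachytene and log2 change 0.23, SE 0.39, adjusted p = 0.769 for round spermatids against diplotene). Its weaker probe set averaged 6.04 in leptotene/zygotene, 6.34 in mid-pachytene, 7.59 in diplotene and 7.39 in round spermatids. That probe set was highest on the late-pachytene array (7.66) and not in round spermatids. Tex264 lay between 8.61 and 9.93 on all arrays and was slightly higher in the later fractions (log2 change 0.47, SE 0.14, adjusted p = 0.00744). Among 10 genes of ER-phagy and membrane contacts 2 were higher and 6 lower in the later fractions (median change -0.67), where 34.5% of all probe sets were higher and 43.7% lower (median change -0.24).

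Tex21 was the only gene of the 32 that passed the test as higher both in diplotene against mid-pachytene and in round spermatids against diplotene. Tex21 (probe set 1453249_a_at) had log2 signals of 4.36, 5.39, 4.69 and 5.65 in spermatogonia, 5.37, 5.18 and 4.29 in pre-leptotene and 5.36, 5.01 and 5.45 in leptotene/zygotene cells. Tex21 then read 6.89 on the early-pachytene array, 6.00 and 5.91 in mid-pachytene, 6.41 on the late-pachytene array, 7.90 and 7.96 in diplotene and 10.04, 10.00, 9.91 and 10.01 in round spermatids. The changes were alike in size (log2 change 1.97, SE 0.41, adjusted p = 0.00321, and log2 change 2.06, SE 0.35, adjusted p = 0.000657). Its 4 round spermatid arrays lay within 9.91 and 10.04, and its second probe set averaged 9.33 in round spermatids, 6.98 in diplotene and 5.64 in mid-pachytene.

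Tex29 and Tex37 both had round spermatid arrays clear of the diplotene ones. Tex29 (probe set 1453407_at) had log2 signals of 7.21, 7.57, 6.02 and 5.72 in spermatogonia, 3.81, 5.89 and 3.44 in pre-leptotene and 6.85, 6.05 and 6.92 in leptotene/zygotene cells. Tex29 then read 8.81 on the early-pachytene array, 7.89 and 9.10 in mid-pachytene, 6.45 on the late-pachytene array, 8.44 and 9.61 in diplotene and 11.61, 11.46, 11.84 and 10.32 in round spermatids. Tex29 changed by 2.28 in round spermatids against diplotene (log2 change 2.28, SE 0.69, adjusted p = 0.0234) and by 3.74 in the later fractions against the early ones (log2 change 3.74, SE 0.39, adjusted p = 2.28e-07). Tex37 (probe set 1430892_at) had log2 signals of 10.15, 10.80, 8.01 and 7.17 in spermatogonia, 6.15, 6.24 and 5.57 in pre-leptotene and 7.27, 6.51 and 6.45 in leptotene/zygotene cells. Tex37 then read 7.56 on the early-pachytene array, 7.76 and 7.66 in mid-pachytene, 6.45 on the late-pachytene array, 7.40 and 6.88 in diplotene and 9.94, 9.23, 9.49 and 8.78 in round spermatids. In Tex37 the signal was higher in round spermatids than in diplotene (log2 change 2.22, SE 0.73, adjusted p = 0.0354).

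The remaining spermatid genes were Tex35, Tex38, Tex43, Tex44, Tex47, Tex48, Tex50, Tex52 and Tex261. Tex38, whose protein binds a palmitoyltransferase of spermatids, lay at 2.55 to 4.06 on the 10 arrays before pachynema, and at 9.23, 9.29, 8.75 and 6.80 in round spermatids against 6.48 and 5.80 in diplotene (log2 change 2.37, SE 0.62, adjusted p = 0.0108). Tex43, a protein inside the doublet microtubules of the sperm tail, read 12.73, 11.81, 11.51 and 11.03 in round spermatids against 9.47 and 9.36 in diplotene, and 10.48 on the early-pachytene array. Tex44 and Tex52 were near background except in round spermatids and on spermatogonia array 2, and for Tex44 also array 1 (5.99), with 5.57 to 6.55 and 6.04 to 7.25 in round spermatids against 3.36 to 3.38 and 4.22 to 4.47 in diplotene. With values under 5 raised to 5, Tex44 no longer passed at that step (change 1.11, adjusted p = 0.225). The probe sets of Tex261 disagreed. The one of highest mean averaged 10.76 in round spermatids and 10.70 in diplotene, and the other 2 averaged 5.52 and 2.44 in round spermatids against 6.87 and 6.05 in diplotene.

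Spermatogonia were the second highest fraction for 8 of the 22 spermatid genes, Tex13a, Tex35, Tex37, Tex44, Tex46, Tex50, Tex52 and Tex55. Without spermatogonia arrays 1 and 2, a choice made after seeing the data, they remained second for Tex44, Tex46 and Tex55 and no longer for the other 5. Averaged over these 8 genes, the log2 signal was 8.70, 8.27, 8.15 and 7.64 in round spermatids, and 8.61, 9.81, 6.85 and 5.60 on spermatogonia arrays 1 to 4. In pre-leptotene cells it was 5.05, 5.62 and 4.84. Spermatogonia arrays 1 and 2 were at the spermatid level and array 4 lay close to pre-leptotene cells. The 8 genes were picked by these same values, so a high spermatogonia mean over them follows from the choice. The other 14 spermatid genes averaged 11.05, 11.06, 11.00 and 10.51 in round spermatids, against 7.12, 8.17, 6.33 and 6.46 in spermatogonia. Tex35, for one, read 10.62, 10.00, 9.88 and 9.07 in round spermatids and 10.83, 11.99, 8.69 and 7.29 in spermatogonia.

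The spermatid markers moved with these genes, but not all of them. Tssk6, a kinase of late spermatids, read 11.10, 10.24, 10.21 and 10.06 in round spermatids and 12.14, 13.38, 10.23 and 9.89 in spermatogonia. Prm2, a protamine that packs sperm DNA, read 14.55, 13.52, 13.84 and 13.78 in round spermatids and 14.99, 15.36, 14.15 and 13.48 in spermatogonia. Both were thus highest on spermatogonia array 2. The acrosomal gene Acrv1 read 12.89, 14.01, 14.01 and 12.45 in round spermatids and 6.81, 8.76, 7.18 and 7.61 in spermatogonia, and Spaca1, also acrosomal, read 12.19, 13.29, 13.61 and 12.08 in round spermatids and 6.56, 7.98, 7.06 and 7.58 in spermatogonia. Of the 8 markers, Prm1, Prm2, Tnp1, Tnp2, Tssk6 and Odf1 were thus above the round spermatid range on spermatogonia array 2, while Acrv1 and Spaca1 stayed below it on all 4 arrays. The part of other cells or free RNA in these signals was not tested.

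**Figure D5:**
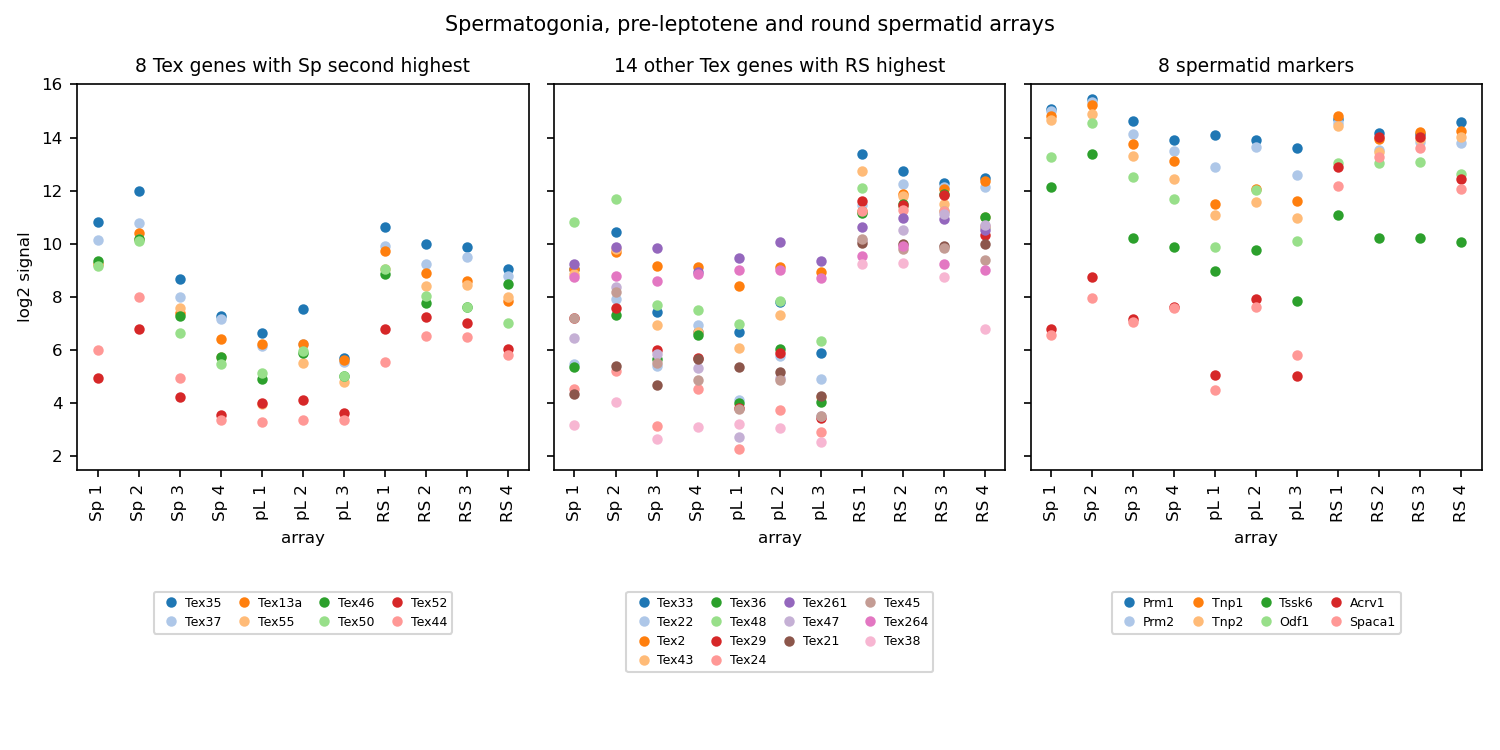
Log2 signal on each spermatogonia, pre-leptotene and round spermatid array (horizontal axis) of the 8 Tex genes with spermatogonia second highest (left), of the 14 other spermatid Tex genes (middle) and of 8 spermatid markers (right), with a colour for each gene. The left panel holds genes picked by these same values. Its round spermatid arrays have means of 7.64 to 8.70, against 8.61 and 9.81 on spermatogonia arrays 1 and 2. On spermatogonia array 2, 6 of the 8 markers lie above their round spermatid range.

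In pre-leptotene cells against spermatogonia, 1 of the 32 genes was lower (3.12%, beside 0.415% of all probe sets) and 0 were higher (beside 0.0714%), in the limma fit. The one past the threshold was Tex37 (log2 change -3.05, SE 0.64, adjusted p = 0.0494), and its adjusted p was 0.0644 with values under 5 raised to 5. Larger changes that did not pass were -3.42 for Tex55 (adjusted p = 0.052) and -3.07 for Tex35 (adjusted p = 0.0892). The count depended on spermatogonia replicate 4, whose mean over the 8 genes above was the lowest of the 4. Without it 11 genes were lower, among 725 of 22396 probe sets called in either direction (109 in the main fit). Without replicate 3 the count was 2, among 359 probe sets called. It was 0 without any other single array except pre-leptotene replicate 2, whose removal left 1 gene, Tex29 in place of Tex37. With the project as a block 13 genes were lower, among 904 of 22396 probe sets called in either direction. Within the 3 projects that hold both fractions, the mean of the 8 genes changed by -3.56, -4.19 and -0.76 in pre-leptotene cells against spermatogonia. The 8 were picked by their spermatogonia values, which favours a fall here. Without spermatogonia arrays 1 and 2, a choice made after seeing the data, 0 genes passed.

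In leptotene/zygotene against pre-leptotene cells only Tex24 passed as higher (3.12%, beside 1.86% of all probe sets) and 0 genes as lower (beside 0.165%). No gene passed once pre-leptotene replicate 1 or 3 or leptotene/zygotene replicate 3 was left out. Tex24 and Tex22 passed without spermatogonia replicate 2 or leptotene/zygotene replicate 1, and 3 genes (Tex24, Tex29 and Tex36) without pre-leptotene replicate 2. With the project as a block 4 genes were higher, Tex22, Tex24, Tex29 and Tex36. Of all 22396 probe sets 1031 were then called in either direction, against 453 in the main fit.

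In mid-pachytene against leptotene/zygotene 4 genes were higher (12.5%, beside 13.7% of all probe sets), namely Tex24, Tex45, Tex36 and Tex2. The 5 that were lower (15.6%, beside 15.3%) were Tex13b, Tex16, Tex15, Tex19.1 and Tex14, so the shares of the Tex genes were near those of the whole array. The count of 9 became 4 without mid-pachytene replicate 2 and 5 without leptotene/zygotene replicate 1. Without mid-pachytene replicate 2 the change of Tex2 was 1.36 (adjusted p = 0.124). Tex36 did not pass without that array or leptotene/zygotene replicate 1 or 2 (log2 changes 1.45 to 1.70, adjusted p = 0.109 to 0.304), and Tex45 did not without either mid-pachytene array or leptotene/zygotene replicate 1 or 2 (log2 changes 1.79 to 2.21, adjusted p = 0.103 to 0.176). With the project as a block 10 genes passed, with Tex101 and Tex22 higher as well and Tex45 no longer among them (log2 change 1.70, adjusted p = 0.123). Of all 22396 probe sets 9087 were then called in either direction, against 6479 in the main fit.

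In diplotene against mid-pachytene 1 gene was higher (3.12%, beside 6.56% of all probe sets), which was Tex21. The 4 that were lower (12.5%, beside 12.7%) were Tex19.1, Tex13b, Tex16 and Tex15, a share near that of the whole array. With the project as a block 9 genes passed, the same 5 with Tex22 and Tex261 higher and Tex30 and Tex101 lower. Of all 22396 probe sets 6816 were then called in either direction, against 4321 in the main fit, so calls rose over the whole array.

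Over the whole course, the mean of mid-pachytene, diplotene and round spermatids was higher than the mean of spermatogonia, pre-leptotene and leptotene/zygotene for 16 of the 32 genes (50%, beside 34.5% of all probe sets). It was lower for 7 genes (21.9%, beside 43.7%). The median change was 0.76 for the Tex genes and -0.24 for all probe sets. The largest rises with arrays that did not overlap were those of Tex24 (5.51), Tex36 (3.94) and Tex29 (3.74), and the largest falls those of Tex13b (-5.25), Tex19.1 (-4.02) and Tex16 (-4.02). The 8 genes whose second highest fraction was spermatogonia were not past the threshold as higher here, apart from Tex52 (0.82, adjusted p = 0.0393), which did not pass with the project as a block (log2 change 0.73, adjusted p = 0.143) or without mid-pachytene replicate 2 (log2 change 0.72, adjusted p = 0.108), among other single arrays. Without spermatogonia arrays 1 and 2, a choice made after seeing the data, 23 genes were higher and 7 lower. They were among 17326 of 22396 probe sets called in either direction (17532 in the main fit). All 8 were among the 23. As the 8 were picked by high spermatogonia values, both outcomes were favoured by that choice.

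The single early- and late-pachytene arrays are given as levels for the spermatid genes. Of the 22 genes, 16 read higher on the early-pachytene array than the mean of mid-pachytene. On the late-pachytene array 16 read lower than the means of both mid-pachytene and diplotene. Shares over all genes were not counted, so these counts cannot be read as a trait of the Tex genes. The early-pachytene array belongs to project 5 and the late-pachytene array to project 2. Mid-pachytene and diplotene arrays belong to projects 4 and 6, so stage and project are not separated here. Over 14 of the 22 genes (those without spermatogonia second highest) the average was 9.13 on the early-pachytene array, 8.14 and 8.73 in mid-pachytene, 8.14 on the late-pachytene array and 9.32 and 9.47 in diplotene. The 8 spermatid markers averaged 12.08 on the early-pachytene array, 11.75 and 12.25 in mid-pachytene, 9.83 on the late-pachytene array and 11.21 and 11.48 in diplotene. Their part in the levels of the Tex genes was not tested.

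The order by peak changed little with the choice of values, but none of these choices left out a replicate of a fraction. Several peaks led the next fraction by little, such as 0.0484 for Tex46, 0.0979 for Tex50 and 0.0393 for Tex13b. The fraction of the highest mean was the same for 32 of the 33 genes after a further quantile normalisation, for 31 over the mean of all probe sets of a gene and for 32 among the fractions with at least 2 arrays.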

How the data were processed

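The authors made GC-RMA signals in GeneSpring and deposited them as linear intensity values, 45037 probe sets on each of 20 arrays (GC-RMA version: not given in the sources used here). Depth does not apply to arrays, and the number of arrays limits the precision. Probe sets were named through the platform annotation (34945 with 1 symbol, 932 with several, 9160 with none), and 1 probe set naming a Tex gene together with other genes was not used. Signals were taken to log2 and fitted with limma 3.58.1 in R 4.3.3 (lmFit, contrasts.fit, eBayes; 8 fractions, 20 arrays, 12 residual degrees of freedom, 3.69 prior degrees of freedom) over 22396 probe sets that reached log2 5 on 2 or more arrays. Tests were two-sided, and calls used Benjamini-Hochberg adjusted p under 0.05. The fit was tested on simulated data. Arrays are separate pools of sorts, so p-values measure the spread between pools. Each probe set has 1 spread for all fractions, so the spread within one fraction enters the p-values of every comparison. Every member is named, with the values of every array for the genes of highest level in each group, the X-linked genes, the Tex19 pair and the largest changes; the arrays of Tex14 were added after its values were seen. Array projects were read from the column names of a supplementary table by equal signals. The members, lists and motifs were chosen with earlier results of these data known. Alternatives were other filters, normalisations, probe set rules, blocks and arrays left out. Python 3.11.15 with pandas 2.3.3 made the other tables.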

Additional observations from a re-analysis of the deposited data

Results flagged for a closer look

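Of the 64 groups of 4 arrays (32 genes in spermatogonia and in round spermatids), 2 held an array far from the other 3 by Dixon's ratio, the gap to the nearest array over the whole range, at a 95% limit of 0.83. Chance flags about 1 in 20 such groups. Tex22 read 11.46 in round spermatid replicate 1, below 12.15, 12.15 and 12.26 on the others (ratio 0.86). Tex24 read 10.67 in round spermatid replicate 4, below 11.22, 11.23 and 11.28 (ratio 0.91).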

How the results depend on the processing

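Array number limits these results, and signals near background carry little information. The number of genes past the threshold in pre-leptotene against spermatogonia was 1, and 0 with no filter, a filter at 6, values raised to 5, quantile normalisation, median centring or spermatogonia arrays 1 and 2 both left out (added after seeing the data), 2 with trend and robust, 12 with the replicate block and 13 with the project block. Leaving out single arrays gave 0 to 11. In leptotene/zygotene against pre-leptotene cells it was 1, and 0 with no filter or values raised to 5, 3 with the replicate block, 4 with the project block and 0 to 3 with an array left out. In mid-pachytene against leptotene/zygotene an array left out gave 4 to 10 (9 in the report). In diplotene against mid-pachytene it was 5, and 8 with the replicate block, 9 with the project block and 4 to 6 with an array left out. In round spermatids against diplotene (17) an array left out gave 7 to 20, for later against earlier fractions (23) 21 to 27, and for any difference (29) 29 to 30. Only Tex261 reversed, over the mean of its probe sets: -1.63 (adjusted p = 0.0145) in round spermatids against diplotene and -0.40 (adjusted p = 0.16) in the later against the earlier fractions. Among 5376 changes of single genes under all settings, 5143 kept direction and side of the threshold, 117 no longer passed, 114 newly passed and 2 reversed. With the replicate block 11 genes passed in mid-pachytene against leptotene/zygotene (Tex101, Tex22 and Tex29 added, Tex19.1 lost at adjusted p = 0.0605), 21 in round spermatids against diplotene (Tex35, Tex43, Tex48 and Tex50 added), 24 in the later against the earlier fractions and 31 for any difference. Over all 22396 probe sets the replicate block called 927, 996, 8929, 6225 and 7344 at the 5 steps in order. The main fit called 109, 453, 6479, 4321 and 5612. Neither the labels nor every correlation tied the replicate numbers together: deviations from the fraction means correlated at -0.17 to 0.70 over 37 pairs of the same number (median 0.34, above 0.1 in 33) and at -0.70 to 0.47 over 96 pairs of different numbers (median -0.12, above 0.1 in 14), and 14 of 18 arrays correlated best with an array of their own number, a hint of a shared effect from the data. The causes of these shifts were not tested.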
